A study of Mus musculus with 12 samples.

Results

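The regions described here were 500 bp tiles of the mouse genome that held many CpGs, lay away from the ends of protein-coding genes and carried little methylation in the left ventricle of the heart. Autosomal CpG positions with a value in all 12 samples were placed in 500 bp tiles. A tile was taken when it held 10 or more sites, when all of its sites lay more than 1 kb from any end of a protein-coding gene in GRCm38, and when its mean over the 12 samples was under 10%. Of 75016 tiles with a site, 6750 held 10 or more sites and 2439 of these lay away from gene ends. Of the 2439, 1485 (60.9%) had a mean under 10%, and these hold 23131 sites. They are called low distal tiles below. In 1301 of them (87.6%) all sites lay inside a gene of some type, and the other 184 (12.4%) are called intergenic, although 20 of these hold an end of a gene that does not code for protein. The tiles were chosen by their measured mean, so their low level is a description and is not tested. A pair of sets from the same table serve for comparison. The 4029 low gene-end tiles had 10 or more sites and a mean under 10% within 1 kb of a gene end, and the 954 methylated distal tiles lay away from gene ends with a mean of 10% or more.

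The 12 samples came from offspring of wild-type FVB/N mice at 3 weeks of age, 1 sample per animal, and methylation was read by reduced representation bisulfite sequencing (RRBS), in which MspI cuts at CCGG and bisulfite separates methylated from unmethylated cytosines. Their mothers, of strain FVB/NJ, were put at 6 weeks of age on high-fat food (HFD) or kept on regular food (RD), and were mated 8 weeks later to males that were all on RD. The HFD group had 3 females and 3 males, and the RD group had 4 females and 2 males, named by the numbers in their titles (HFD female 2 to 4, HFD male 2 to 4, RD female 1 to 4, RD male 1 and 2). The comparison asks how obesity of the mother marks the heart of her young. The labels do not give the number of mothers or the litter of each animal, so p-values measure the spread between these animals, some of which may share a mother. The HFD libraries carry lower numbers in the labels (2 to 8) than the RD libraries (9 to 14), and the effect of that order cannot be told apart from that of the diet. The left ventricle is a mixture of cell types, and a change in the share of a cell type cannot be told apart from a change of methylation within cells. The table gives percentages without read counts, so the depth behind a value is unknown and no interval for a single value can be given.

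In mammals most CpGs are methylated and CpGs are rare, except in CpG islands, where they are dense and usually free of methylation. Many islands cover the start sites of genes. Islands that cover no known gene start are often called orphan islands, and they can mark alternative starts, starts of noncoding RNAs or enhancers, many of them at regulators of development that Polycomb proteins hold silent in adult tissue. A CpG island that stays unmethylated in a tissue need not belong to an active gene.

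Stretches of DNA from 6 starts show what these tiles look like. Each line below gives the 250 bases before a start site annotated in RefSeq (GRCm38.p6), 5′ to 3′ on the strand of that start, for low distal tiles that a start window crossed. Capitals mark each CpG with a value in the table. The Pax2 stretch is chr19:44756656-44756905 (+), the Jmjd1c stretch chr10:67126838-67127087 (+), the Cadps2 stretch chr6:23839422-23839671 (−), the 1700045H11Rik stretch, which lies inside Errfi1, chr4:150854950-150855199 (−), the Srpk2 stretch chr5:23675968-23676217 (−), and the Gm40371 stretch chr6:47651321-47651570 (−).
Pax2: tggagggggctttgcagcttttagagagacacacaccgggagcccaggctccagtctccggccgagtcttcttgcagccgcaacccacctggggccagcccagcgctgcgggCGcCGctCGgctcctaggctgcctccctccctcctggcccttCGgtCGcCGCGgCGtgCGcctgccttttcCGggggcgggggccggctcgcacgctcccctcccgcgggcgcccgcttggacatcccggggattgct
Jmjd1c: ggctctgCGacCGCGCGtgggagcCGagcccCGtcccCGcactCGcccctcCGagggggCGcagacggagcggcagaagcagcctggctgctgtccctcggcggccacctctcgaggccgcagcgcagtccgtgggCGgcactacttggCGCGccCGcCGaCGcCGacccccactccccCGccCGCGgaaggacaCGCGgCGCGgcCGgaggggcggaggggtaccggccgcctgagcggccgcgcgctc
Cadps2: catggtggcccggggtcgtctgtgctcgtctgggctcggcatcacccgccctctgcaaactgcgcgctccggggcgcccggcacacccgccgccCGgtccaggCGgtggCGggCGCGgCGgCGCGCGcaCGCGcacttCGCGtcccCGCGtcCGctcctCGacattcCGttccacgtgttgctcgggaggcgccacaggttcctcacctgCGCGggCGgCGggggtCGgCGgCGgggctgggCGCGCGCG
1700045H11Rik: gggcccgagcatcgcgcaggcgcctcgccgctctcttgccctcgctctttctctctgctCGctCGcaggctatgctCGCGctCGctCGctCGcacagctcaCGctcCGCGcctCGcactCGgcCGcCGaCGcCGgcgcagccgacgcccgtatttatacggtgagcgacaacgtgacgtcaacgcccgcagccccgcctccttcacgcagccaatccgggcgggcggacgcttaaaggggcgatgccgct
Srpk2: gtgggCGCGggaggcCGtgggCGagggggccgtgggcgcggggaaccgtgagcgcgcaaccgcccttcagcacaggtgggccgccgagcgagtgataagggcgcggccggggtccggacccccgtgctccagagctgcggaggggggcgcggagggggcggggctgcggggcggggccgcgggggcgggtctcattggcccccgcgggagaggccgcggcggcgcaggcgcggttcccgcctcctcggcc
Gm40371: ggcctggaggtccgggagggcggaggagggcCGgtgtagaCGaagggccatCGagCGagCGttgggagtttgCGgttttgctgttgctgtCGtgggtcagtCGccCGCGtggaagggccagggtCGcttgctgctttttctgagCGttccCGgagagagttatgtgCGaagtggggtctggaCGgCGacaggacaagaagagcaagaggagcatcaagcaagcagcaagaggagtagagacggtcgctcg
The Pax2 stretch, from the gene of a paired-box factor of kidney, eye and ear development, held 25 CpGs, 10 of them with values. The Jmjd1c stretch, from the gene of a protein with a demethylase-like JmjC domain, held 40 CpGs, 25 with values. The Cadps2 stretch, from the gene of a protein that primes dense-core vesicles for secretion, held 44 CpGs, 29 with values, and is followed up below because 1 of its tiles had an unusually wide spread. The 1700045H11Rik stretch held 41 CpGs, 16 with values, and its tile sat between methylated flanks. The Srpk2 stretch held 38 CpGs, 4 with values, and belongs to a run of 3 adjacent tiles. The Gm40371 stretch held 21 CpGs, 16 with values, and leads to the start of a noncoding gene, which lies within an intergenic tile with many sites.

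Start windows, which reach from 250 bases before to 50 bases after an annotated start, crossed 226 low distal tiles. The 254 windows that did so had a median of 28 CpGs per 300 bases, a median GC content of 67% and a median ratio of observed to expected CpGs of 0.851. The 1609 windows over low gene-end tiles had medians of 28 CpGs, 66.3% and 0.867. Over all 31365 windows on the chromosomes with start annotation, the medians were 7 CpGs, 53% and 0.388. The 32 windows over methylated distal tiles had medians of 18.5 CpGs, 64% and 0.662. All 3 sets were kept for crossing tiles with 10 or more sites. That choice favours CpG-rich windows, so it sets at least part of their distance from all windows. The recognition site of MspI, CCGG, occurred a median of 3 times in windows over low distal tiles and 1 time over all windows. Windows were searched on both strands for 5 short motifs, none of which contains another. The GC box GGGCGG, which holds a CpG itself, was in 78.3% of windows at low distal tiles, 75.6% at low gene-end tiles, 62.5% at methylated distal tiles and 36.0% of all. In the same order, the TATA box TATAAA was in 4.72%, 4.54%, 3.13% and 13.6%, and the CCAAT box in 27.6%, 30.1%, 18.8% and 37.3%. The E-box CACGTG was in 11.02%, 11.1%, 6.25% and 7.14%, and the ETS motif CCGGAAG, which holds the MspI site, in 13.8%, 19.5%, 15.6% and 9.0%. A match is a description of letters and not a bound site.

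Before the results, the libraries that stood apart need naming. Over the low distal tiles the mean was 2.65% in HFD female 2, 2.30% in HFD female 3, 2.53% in HFD female 4, 2.82% in HFD male 2, 3.66% in HFD male 3 and 3.44% in HFD male 4. In the RD group it was 3.85% in RD female 1, 2.85% in RD female 2, 2.11% in RD female 3, 1.98% in RD female 4, 2.03% in RD male 1 and 3.31% in RD male 2. RD female 1 had the highest mean of all 12. The median over these tiles was highest in HFD male 3, at 2.54% against 2.13% in RD female 1. Over the intergenic tiles alone, the mean was 3.98% in HFD male 3 and 3.38% in RD female 1. The means of the low gene-end tiles ran from 1.30% in RD female 4 to 3.04% in RD female 1. Those of the methylated distal tiles ran from 67.7% in RD male 1 to 70.3% in RD female 1. RD female 1 exceeded 20% in 35 low distal tiles, against 12 tiles each in HFD male 3 and HFD male 4, 6 in RD male 2 and at most 3 in any of the other 8 samples. Low distal tiles at exactly 0% numbered 27, 20 and 37 in HFD females 2 to 4 and 19, 18 and 29 in HFD males 2 to 4. They numbered 65, 101, 76 and 41 in RD females 1 to 4 and 87 and 101 in RD males 1 and 2. Every RD sample thus had more tiles at 0% than any HFD sample, and the reason was not tested. Where leaving out 1 sample moved the mean of a named tile by over 1.5 times, that mean is also given without it. As a check of the tissue label, sites within 1 kb of an end of heart muscle genes averaged 2.29% at Ryr2, 5.06% at Des, 6.51% at Actn2, 14.6% at Myl7, 48.3% at Tnnt2 and 69.2% at Myh6, the 6 of 14 listed genes with 3 or more sites there. Of 8 listed endothelial genes, the 2 with 3 or more sites, Tie1 and Esam, stood at 32.8% and 27.3%. With 2 sites each, Pecam1 stood at 32.9% and Kdr at 5.77%. Of 6 listed liver genes, Fgb was the only 1 with 3 or more sites and stood at 82.8%. Methylation at a few sites does not identify a tissue, and the labels' left ventricle is taken as given.

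**Figure D1:**
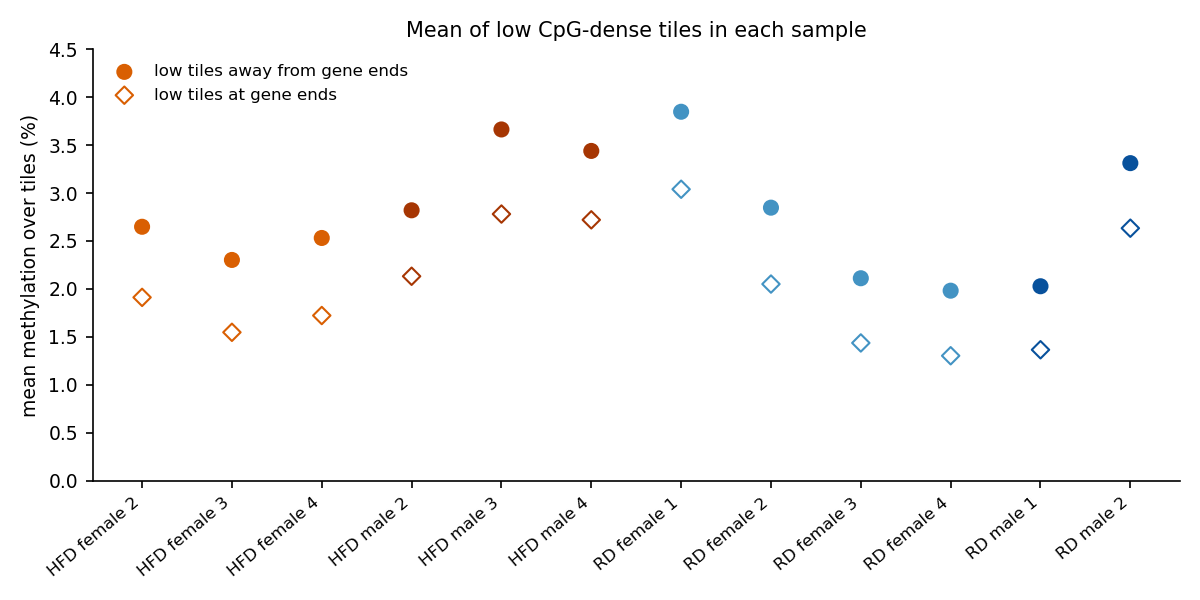
Mean methylation in percent over the 1485 low distal tiles (filled circles) and over the 4029 low gene-end tiles (open diamonds) in each of the 12 samples, on an axis that starts at 0. Orange marks HFD, blue marks RD, and the darker shade marks males. RD female 1 is highest in both sets at 3.85% and 3.04%, and each diamond lies below its circle.

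The name orphan did not hold for all of these tiles. On chromosome 18 no starts were given, so the 66 tiles there could not be sorted. Of the other 1419, 527 (37.1%) had an annotated start of a protein-coding gene within 1 kb, which by the rule was an alternative start and not an end of the gene. A further 171 (12.1%) had no such start but had a gene of another type ending or starting within 1 kb. Over all 1485, each tile was counted once, by its nearest end of a gene that does not code for protein. In 209 tiles that end lay within 1 kb and was of a long noncoding RNA gene, and in 15 of a microRNA gene. Then 545 (38.4%) lay inside a protein-coding gene with neither, and 176 (12.4%) lay outside protein-coding genes with neither. Starts were not given for every gene on these chromosomes. Of the 545, 354 were assigned to a gene with a start given, so starts of other genes may be missing from these counts. Of 925 methylated distal tiles sorted the same way, 31 (3.35%) had a protein-coding start within 1 kb, 105 (11.4%) an end of another gene type, 598 (64.6%) lay inside a gene with neither and 191 (20.6%) outside with neither. When the ends of genes of every type counted in the rule, 1225 of the tiles were left. An annotated start overlapped 103 low distal tiles and lay within 250 bp of 354.

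**Figure D2:**
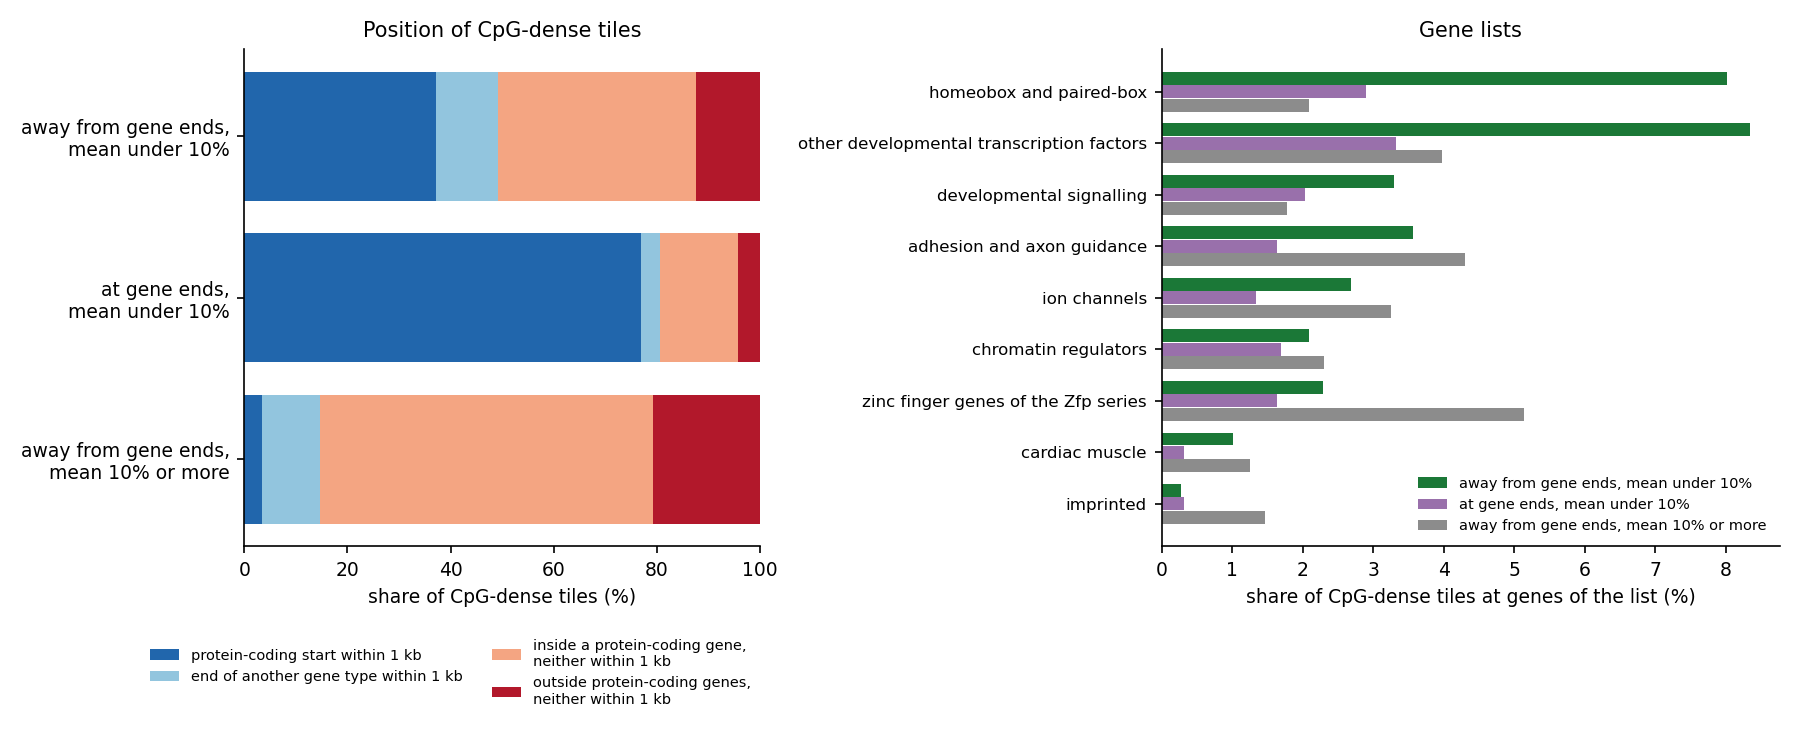
Left, share in percent of CpG-dense tiles by what was annotated within 1 kb, for 1419 low distal, 3936 low gene-end and 925 methylated distal tiles (chromosome 18 left out). Right, share in percent of the tiles of each set that belong to genes of 9 lists, over 1485, 4029 and 954 tiles. A protein-coding start lay within 1 kb of 37.1% of low distal tiles and 3.35% of methylated distal ones, and homeobox and paired-box genes held 8.01% against 2.10%.

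Distances to the nearest protein-coding gene end ran from 1002 to 617337 bp with a median of 3337 bp. There were 508 tiles within 2000 bp, 362 more within 5000 bp, 184 more within 10000 bp, 287 more within 50000 bp, 74 more within 100000 bp and 70 beyond that. The tile farthest from a gene end lay inside Tenm3, the gene of a teneurin adhesion protein, at chr8:48843002-48843169, 716 bp from an end of the noncoding gene Gm19744, and averaged 1.74% ± 0.331 (SD, n = 12). An intergenic tile at chr8:73353397-73353470 lay 589499 bp from its nearest protein-coding gene end, that of F2rl3, and averaged 0.473% ± 0.548. A tile at chr1:112416605-112416756 lay 551553 bp from Dsel but 162 bp from a start of the noncoding gene Gm32810, and averaged 4.61% ± 1.43. A tile inside Ptprd, the gene of a receptor phosphatase, at chr4:76449536-76449961, averaged 0.798% ± 0.542. Of these 4, 3 had an end of a noncoding gene within 1 kb, and the intergenic one at F2rl3 had its nearest 83049 bp away.

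Inside genes of known strand, low distal tiles lay toward the 5′ end. For 928 tiles in a protein-coding gene of known strand, the median position was 18.8% of the way from the 5′ end to the 3′ end, and 353 (38.0%) lay in the first 10% of the gene. For 538 methylated distal tiles the median was 70.3%, and 21 (3.90%) lay in the first 10%. Tiles with an alternative start within 1 kb had a median position of 11.5% (527 tiles), and those with neither a start nor an end nearby 33.7% (354 tiles). Strand was known only for genes with a start given. That kept all 527 of the former but 354 of 545 of the latter, so the pooled values give the former more weight. Of methylated distal tiles inside a gene with neither, 478 of 598 were kept. In absolute terms 543 of the 928 (58.5%) lay within 5 kb of the 5′ end, against 82 of 538 (15.2%). These shares describe the tiles and were not tested.

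Methylation rose with distance from the tiles, and from 1000 bp outward it was lower than around gene ends. Sites within 250 bp of the centre of a low distal tile averaged 2.86% over the tiles. The mean was 8.47% at 500 to 1000 bp (630 tiles with a site there), 23.4% at 2000 to 3000 bp (344 tiles) and 44.9% at 7500 to 10000 bp (411 tiles). Around low gene-end tiles the same distances gave 2.09%, 6.70%, 43.6% and 50.6%. Around tiles outside protein-coding genes with no annotation within 1 kb, the mean was 21.3% at 2000 to 3000 bp (37 tiles) and 34.6% at 7500 to 10000 bp (65 tiles). The rise there was uneven, with 15.3% at 4000 to 5000 bp over 33 tiles. RRBS reads few sites between islands, so each distance rests on other tiles and the profiles were not tested. No site at all lay more than 500 and up to 2000 bp from the outer sites of 715 low distal tiles. Of the 660 tiles with 3 or more sites in that range, 516 (78.2%) had a flank mean under 10% and 32 (4.85%) had one over 50%.

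**Figure D3:**
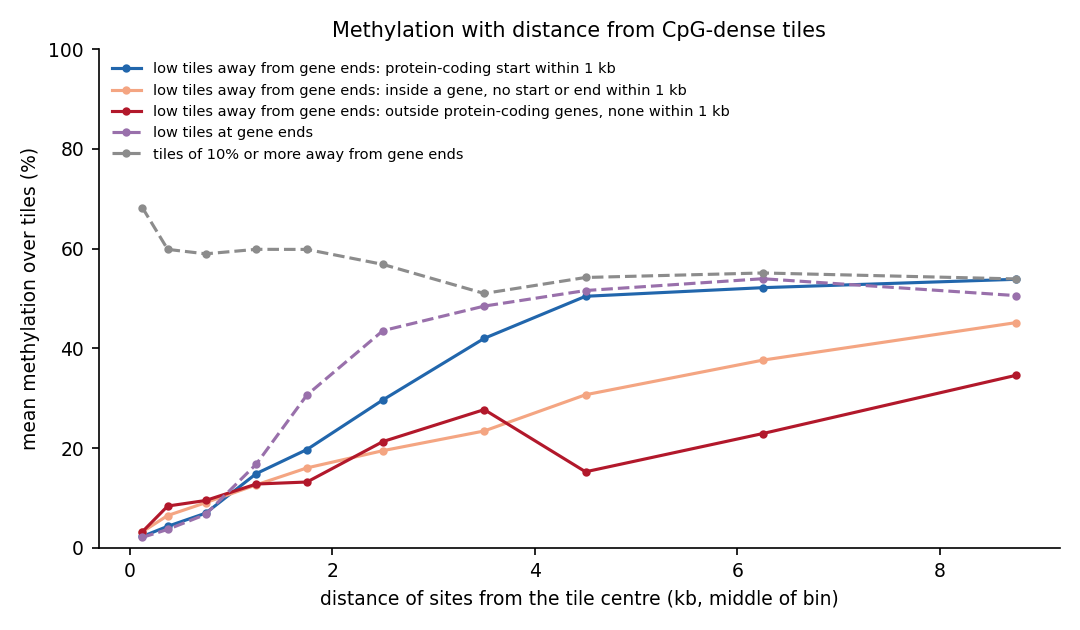
Mean methylation in percent over tiles, on the y axis, of sites in bins of distance from the tile centre in kb, on the x axis, plotted at the middle of each bin. Solid lines are 3 groups of low distal tiles and dashed lines the 2 comparison sets. At 2000 to 3000 bp the low gene-end tiles had reached 43.6%. Low distal tiles inside a gene, with no start or end given within 1 kb, were at 19.5% there.

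The 4 tiles with the most methylated flanks were single low islands. A tile inside Bmp4, the gene of a secreted growth factor, at chr14:46385848-46385998, averaged 1.73% ± 0.36 (SD, n = 12) between flanks that averaged 97.0% over 6 sites, and no sample passed 2.39%. A tile inside Abhd8 at chr8:71463014-71463333 averaged 1.67% ± 0.68 between flanks of 88.8% over 15 sites. The tile inside Errfi1, the gene of a feedback inhibitor of the EGF receptor, at chr4:150855066-150855139, averaged 1.04% ± 1.24 between flanks of 88.5% over 4 sites, and its sequence is part of the 1700045H11Rik stretch above. A tile inside Celf4, the gene of an RNA-binding protein of neurons, at chr18:25679312-25679386, averaged 1.64% ± 1.22 between flanks of 88.3% over 4 sites.

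Most tiles stood alone, and few formed longer runs. The 1485 tiles fell into 1332 runs of adjacent tiles, of which 1192 held 1 tile, 128 held 2, 11 held 3 and 1 held 4. Tiles of a run share an island and are not independent of each other. The run of 4 lay inside Runx2, the gene of the master regulator of bone formation, at chr17:44734662-44736211, with tile means of 1.85%, 0.822%, 1.36% and 2.27%, the last of them 1.42% without RD female 2. In Sp9, a zinc finger factor of limb and brain, 3 adjacent tiles had means of 3.08%, 1.98% and 7.57%, the second of them 1.16% without HFD male 3. In Srpk2, the gene of a kinase of splicing factors, the means were 0.593%, 8.66% and 1.82%, so that the middle tile stood above both neighbours. In Pcdh7, a protocadherin, they were 2.12%, 2.44% and 3.32%. In Cadps2 they were 2.33%, 3.65% and 6.09%, the last of them 3.03% without RD female 1. Low gene-end tiles adjoined 65 of the low distal tiles.

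Nr2f2 and Pax2 had the most low distal tiles. Tiles were assigned to the protein-coding gene that holds them or, outside such genes, to the nearest protein-coding gene, also where a noncoding gene holds the tile (111 tiles). Nr2f2, the gene of the nuclear receptor COUP-TFII of venous and atrial identity, and Pax2 had 6 tiles each. Skor2, a co-repressor of the developing cerebellum, had 5. Tbr1, a T-box factor of cortical neurons, Nkx2-2, a homeobox factor of the ventral neural tube and pancreas, Scrt2, a zinc finger repressor of the nervous system, Ythdf1, a reader of methylated adenosine in RNA, and Tchh, a structural protein of hair follicles, had 4 each. Sox1, Irx5, Topaz1 and Runx2 also had 4 and are named because they tied.

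The 6 tiles at Nr2f2 spread from chr7:70281004 to chr7:70370354. Their means were 4.13% ± 2.05 (SD, n = 12), 1.96% ± 0.58, 1.57% ± 0.89, 1.10% ± 0.44, 1.62% ± 2.92 and 2.89% ± 1.11 in order of position. Of the 6, 3 lay inside Nr2f2 itself, 2 inside the noncoding genes Gm29683 and B130024G19Rik beside it, and 1 between genes. In the fifth of these tiles RD male 2 stood at 10.1% while the other 11 samples lay between 0% and 4.11%, with a mean of 0.855%. At Pax2 the tiles spread from chr19:44684086 to chr19:44756840. Their means were 2.93% ± 2.24, 5.48% ± 4.01, 4.07% ± 1.67, 1.50% ± 1.14, 1.66% ± 0.46 and 0.867% ± 1.05. Of these 6, 2 lay inside Pax2, 310 and 66 bp from an alternative Pax2 start, and the last of them is wholly within the Pax2 stretch printed above.

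At Skor2 the tile means were 3.48% ± 1.76, 4.89% ± 1.15, 3.90% ± 1.27, 5.61% ± 3.997 and 5.60% ± 0.91, above the median of 2.08% over all low distal tiles. At Tbr1 they were 5.79% ± 1.74, 4.75% ± 7.49, 3.24% ± 2.48 and 7.75% ± 2.63, the second of them 2.96% without RD female 1. At Nkx2-2 they were 5.89% ± 4.14, 2.45% ± 1.45, 6.09% ± 4.16 and 2.62% ± 2.30. The tiles named for Scrt2 had means of 1.08% ± 0.48, 2.10% ± 1.17, 2.20% ± 1.18 and 7.01% ± 1.52, and the first 2 of them lay 32531 and 32355 bp from that gene. The 4 tiles named for Ythdf1 lay 9958 to 13037 bp from it, at chr2:180891001-180894419, and the nearest annotated gene was the microRNA gene Mir124a-3, an end of which lay within the fourth tile. Their means were 4.85% ± 2.36, 2.46% ± 0.65, 1.68% ± 0.55 and 1.32% ± 0.78, lowest at the hairpin. At Tchh the means were 4.83% ± 2.47, 3.74% ± 3.01, 1.61% ± 0.97 and 7.16% ± 4.05.

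Tiles also lay at microRNA genes, a group chosen for naming after the values were seen. Of the hairpins with a RefSeq sequence, 13 lay within 1 kb of a low distal tile and 4 overlapped one. Mir124a-3 and Mir124a-2, named elsewhere in the text, are not among the 13. The mature sequences of 3 of them are shown, 5′ to 3′ with the seed (bases 2 to 8) in capitals, as examples of well-studied microRNAs: miR-132 and miR-129 act in neurons, and miR-34b is a target of p53. Coordinates of the hairpins are chr11:75173682-75173747 (+) for Mir132, chr2:94241364-94241453 (−) for Mir129-2 and chr9:51103562-51103645 (−) for Mir34b.
miR-132-3p: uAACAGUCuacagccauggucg
miR-132-5p: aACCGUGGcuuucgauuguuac
miR-129-5p: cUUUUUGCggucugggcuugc
miR-129-2-3p: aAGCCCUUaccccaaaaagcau
miR-34b-3p: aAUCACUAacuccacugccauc
miR-34b-5p: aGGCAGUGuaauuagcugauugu
No seed is shared among these 6. The tile over Mir132, at chr11:75173500-75173718, averaged 4.16% with samples from 0.519% to 16.5%. The tile over Mir129-2, at chr2:94241399-94241499 inside the noncoding gene Mir670hg, averaged 1.57% with samples from 0.149% to 3.50%. The tile 131 bp from Mir34b, at chr9:51103776-51103995, averaged 3.12% with samples from 1.38% to 6.56%. Tiles over Mir760 and Mir3093 averaged 7.97% and 2.62%. All 5 tiles were low in most samples, and the widest range was that of Mir760, from 1.27% to 32.1% in RD female 1, with the next sample at 13.5%.

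Homeobox and paired-box genes, which set body axes and organ identity, held 119 low distal tiles at 75 genes (8.01% of 1485), against 2.90% of low gene-end tiles and 2.10% of methylated distal tiles. Among intergenic low distal tiles the share was 15.2% (28 of 184). The 4 with the most sites were at Lmx1b, a factor of limb patterning, with 31 sites and a mean of 1.58% ± 0.63 (SD, n = 12), Nkx2-1, a factor of lung and thyroid, with 30 sites and 1.85% ± 0.87, Otx1, a factor of the forebrain, with 29 sites and 3.98% ± 0.99, and Mnx1, a factor of motor neurons and pancreas, with 28 sites and 5.09% ± 1.30. The median over the list was 3.00%. Other developmental transcription factors held 124 tiles at 80 genes (8.35%), against 3.33% and 3.98% in the comparison sets. The leading tiles of that list were at Tbr1 (36 sites, 3.24% ± 2.48), Tbx1, a T-box factor of the cardiac outflow tract (36 sites, 2.38% ± 1.49), Nfix (34 sites, 4.33% ± 1.21) and Foxc1, a forkhead factor of heart and eye (31 sites, 2.23% ± 1.98).

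Developmental signalling genes held 49 tiles (3.30%, against 2.04% of low gene-end and 1.78% of methylated distal tiles), led by Shh, the hedgehog ligand (36 sites, 4.94% ± 2.78), Wnt7b, a Wnt ligand (35 sites, 1.11% ± 0.80), Smad6, an inhibitor of BMP signalling (28 sites, 2.54% ± 1.83), and Fzd5, a Wnt receptor (27 sites, 2.13% ± 1.01). Adhesion and axon guidance genes held 53 tiles (3.57%, against 1.64% and 4.30%), led by Ntn1, which encodes netrin (46 sites, 2.42% ± 1.87), and a second tile in Tenm3 (32 sites, 2.22% ± 1.85). Ion channel genes held 40 tiles (2.69%, against 1.34% and 3.25%), and their tile with the most sites, in the potassium channel gene Kcng2, was among the higher ones at 9.25% ± 7.11 over 42 sites. In the last 2 lists the share was above that of low gene-end tiles and below that of methylated distal tiles. Chromatin regulators held 31 tiles (2.09%, against 1.69% and 2.31%), and the zinc finger genes of the Zfp series 34 (2.29%, against 1.64% and 5.14%).

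Genes of cardiac muscle held 15 tiles at 12 genes (1.01%, against 0.323% of low gene-end and 1.26% of methylated distal tiles), all inside genes. The tile with the most sites lay in Tbx5, a T-box factor of heart and forelimb, at chr5:119803613-119803988, with 24 sites and 2.16% ± 1.41 (SD, n = 12), and its samples ran from 0.641% to 5.62%. A tile in Mef2a, a transcription factor of muscle, averaged 4.24% ± 3.17 and lay 365 bp from an alternative Mef2a start. A tile in Lmna, the gene of lamins A and C, averaged 0.785% ± 0.453, and a tile in Ppargc1a, a co-activator of mitochondrial genes, 1.56% ± 1.10. Imprinted genes held 4 tiles (0.269%, against 0.323% and 1.47%), at Zdbf2 (2.76% ± 0.55), Pde10a (1.43% ± 1.46), Igf2 (5.10% ± 4.88) and Commd1 (0.860% ± 0.659). At Igf2 the HFD samples had a lowest value of 1.84%, a median of 4.86% and a highest value of 12.2%, and the RD samples 0.906%, 1.59% and 14.4%, so the groups overlapped. No tile of any of the 9 lists passed the test for diet, sex or their interaction.

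The tiles with the most sites inside genes were Siglec15 (49 sites, 4.08% ± 0.85, SD, n = 12), Ankrd24 (48 sites, 0.860% ± 0.680), Ttc34 (46 sites, 2.79% ± 2.84), Ntn1, Agap1 (45 sites, 1.77% ± 2.22) and the tile over Mir760, named for the nearby Dnttip2 (43 sites, 7.97% ± 8.34). Among intergenic tiles they were Wnt7b, 1520401A03Rik (35 sites, 3.96% ± 5.60, and 2.46% without RD female 1), Otx1, Mnx1, the Gm40371 tile (27 sites, 3.58% ± 1.25) and a tile near Sfrp2, a secreted Wnt inhibitor (26 sites, 2.45% ± 1.16). The Wnt7b tile lay 43865 bp from that gene. The Gm40371 tile held an end of that noncoding gene, and the tile near Sfrp2 an end of Gm7115, annotated as a pseudogene.

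Over all 1485 tiles the median number of sites was 14, from 10 to 49, over a median span of 192 bp. The median tile mean was 2.08%, with quartiles of 1.26% and 3.74%, and 234 tiles were under 1%, 1262 under 5% and 223 between 5% and 10%. Of 277572 single values, 50.1% were 0, 92.8% were under 10% and 0.0400% were over 50%. Methylation at single sites was not even. The highest site of a tile, as a mean over the 12 samples, had a median of 5.81%, and 55 tiles held a site over 20%. In a tile in Cdh23 at chr10:60687540-60687994 sites ran from 0.544% to 54.5% with a median site of 4.43%. In a tile inside Gm20517 and Usp49 they ran from 1.55% to 55.2% (median site 4.72%), in Wnt10b from 0% to 48.6% (0.955%) and in Tpbgl from 0% to 39.0% (0.601%), so that in each of the 4 a few sites stood far above the rest. The highest site was the first or last of its tile in 843 tiles (56.8%), while 12.8% of sites are first or last. Both cytosines of a CpG had rows of their own at 416 CpGs, and a sample's 2 values there differed by a median of 1.85 percentage points.

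The limit of 10% cut through a continuous range. Just inside it stood the tile in Cdh23 at 9.99% ± 2.51 (SD, n = 12) and one in Arhgap32 at 9.92% ± 10.8. Just outside stood tiles in Cyp46a1 at 10.02% ± 3.56, Cilp2 at 10.1% ± 2.69 and Celf2 at 10.1% ± 9.82. In Arhgap32 the level depended on RD female 1 at 41.1%, since the other 11 samples lay between 0.730% and 14.9%.

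The rule limits the mean of a tile and with it the spread in points. The median SD over the 12 samples was 1.32 percentage points beside a median mean of 2.08%, 1188 tiles stayed under 10% in every sample, and 60 had a sample over 20%. Without RD female 1 the last count was 33, and without RD female 1 and HFD male 4 it was 24. RD female 1 was the highest sample in 235 tiles (15.8%), RD male 2 in 262 (17.6%) and HFD male 3 in 225 (15.2%), the others in fewer.

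The 4 tiles with the largest spread shared their high samples. The first lay in Gm2102 at chr1:78217087-78217153 and held 14 sites. It stood at 3.13%, 1.11% and 16.0% in HFD females 2 to 4, at 0%, 8.60% and 24.8% in HFD males 2 to 4, at 46.7%, 0%, 0.714% and 0.893% in RD females 1 to 4, and at 0.325% and 0.649% in RD males 1 and 2. RD female 1 was far above the other RD samples, and HFD male 4 was the highest HFD sample. The second lay in Hlcs, the gene that attaches biotin to carboxylases, 86 bp from an alternative Hlcs start. Its HFD samples had a lowest value of 0.970%, a median of 3.25% and a highest value of 27.1% in HFD male 4, and its RD samples 0.273%, 1.50% and 46.0% in RD female 1. In the Cadps2 tile at chr6:23839504-23839577, which lies within the Cadps2 stretch printed above, HFD samples had 0.278%, 2.11% and 21.1%, and RD samples 0%, 0.427% and 39.7%, with the same 2 samples highest. In the tile of Epb41l1, a protein of the membrane skeleton, HFD samples had 0.903%, 4.69% and 21.7%, and RD samples 0.600%, 3.35% and 40.5%, again with HFD male 4 and RD female 1 highest. Without RD female 1 the mean over samples was 5.12% at Gm2102 and 5.26% at Hlcs, against 8.58% and 8.65% with it. In all 4 tiles the groups overlapped, and the adjusted p for diet was 0.939 at Gm2102, 0.984 at Hlcs, 0.985 at Cadps2 and 0.982 at Epb41l1 by limma. The part of library quality or of 1 animal in these values was not tested.

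**Figure D4:**
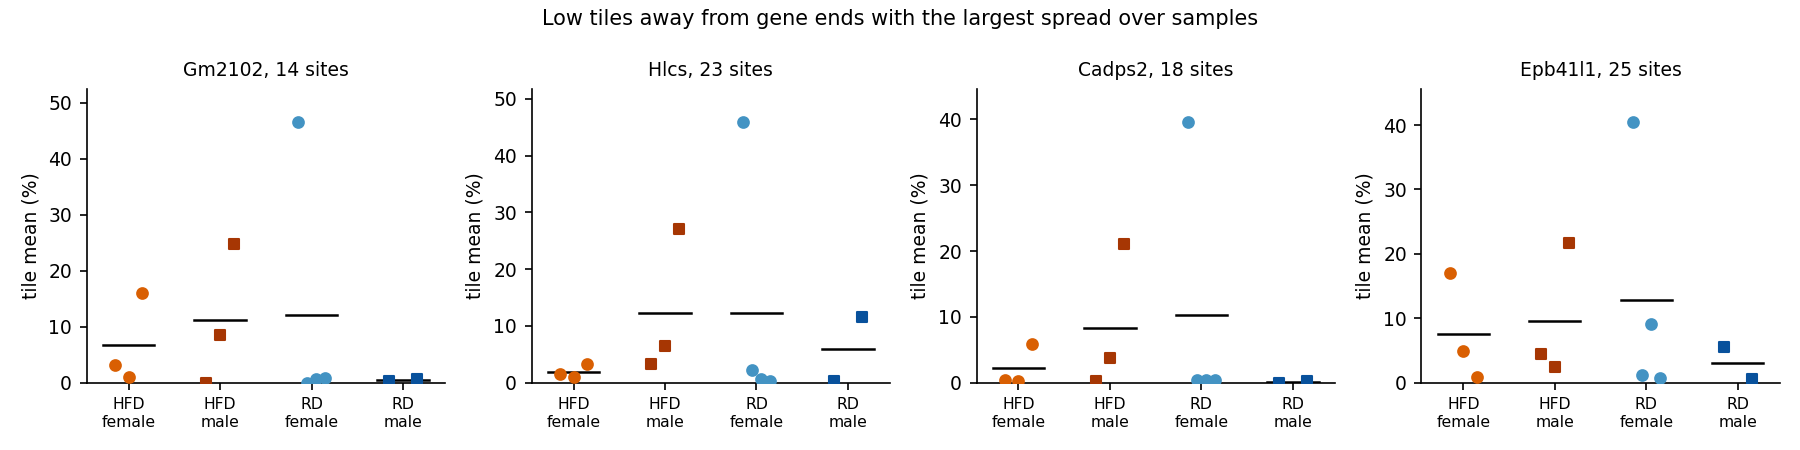
Tile mean in percent for each sample, by group, in the 4 low distal tiles with the largest SD over the 12 samples. Circles are females, squares are males, and bars are group means. In each panel 1 RD female (RD female 1, at 39.7% to 46.7%) lies far above the rest.

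Maternal diet was tested in all 38449 autosomal tiles with 3 or more sites, on log2((rate + 0.05)/(1 − rate + 0.05)) of the tile mean with sex as a second term in limma, with Benjamini-Hochberg adjustment over all tiles. Of the 1485 low distal tiles, 0 passed an adjusted p of 0.05 for diet, where 0.0208% of all tiles (8) did. The smallest adjusted p among them was 0.195. At an unadjusted p under 0.05 there were 68 low distal tiles (4.58%), against 6.93% of all tiles. Of the 68, 53 were higher in HFD and 15 lower. Over the low gene-end tiles the same counts were 152 higher and 34 lower, and over all tiles 1361 higher and 1305 lower. In 9 low distal tiles (0.606%) the HFD and RD samples were fully apart, 8 of them higher in HFD, against 0.577% of all tiles. Both shares were near or below those of all tiles, so neither is a result about the low distal tiles. Without RD male 1, 75 low distal tiles had an unadjusted p under 0.05 (5.05%, against 6.88% of all tiles), 33 of them higher and 42 lower in HFD, so the excess of higher tiles was not seen without that sample. The median difference on the log2 scale was 0.03 over low distal tiles, 0.0024 over all tiles and 0.03 over low gene-end tiles.

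In percentage points the median difference of HFD minus RD was 0.162, with a median standard error of 0.752. It was within 1 point in 1059 tiles (71.3%) and within 2 points in 1337 (90.0%). It passed 5 points in 17 tiles, 12 higher and 5 lower in HFD. Averaged over the low distal tiles, HFD samples had a mean of 2.90% ± 0.54 (SD, n = 6) and RD samples 2.69% ± 0.78 (n = 6), a difference of 0.213 points that was smaller than the spread within either group. The difference was 0.445 points without RD female 1, 0.338 without RD male 2 and 0.332 without HFD female 3. It was 0.0602 points without HFD male 3, 0.105 without HFD male 4, 0.0974 without RD female 3, 0.0715 without RD female 4 and 0.0807 without RD male 1. Intergenic tiles differed by 0.403 points and tiles inside genes by 0.186 points, and by 0.520 and 0.434 points without RD female 1. Without HFD male 3 these differences were 0.245 and 0.0341 points, and over all samples left out in turn they ran from 0.245 to 0.527 and from 0.0341 to 0.434. By group the means were 2.49% ± 0.18 in HFD females (n = 3), 3.31% ± 0.44 in HFD males (n = 3), 2.70% ± 0.86 in RD females (n = 4) and 2.67% ± 0.91 in RD males (n = 2). The low gene-end tiles, at 2.14% ± 0.51 in HFD and 1.97% ± 0.73 in RD, showed the same order.

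The 3 low distal tiles with the smallest p for diet were all higher in HFD and did not pass the threshold. The first, at chr9:78821648-78821719, lay 382 bp from an end of Gm8116 and 105388 bp from Cd109. Its HFD samples had a lowest value of 1.45%, a median of 2.88% and a highest value of 5.94%, and its RD samples 0.173%, 0.398% and 0.649%. The groups did not overlap. The log2 difference was 0.59 ± 0.12 (SE) with an adjusted p of 0.195 by limma. The second lay in Set, the gene of a histone chaperone and phosphatase inhibitor, 238 bp from an alternative Set start, at chr2:30066712-30066903. HFD samples had 3.92%, 6.67% and 9.65%, and RD samples 0%, 0.909% and 3.58%, again without overlap. The log2 difference was 0.90 ± 0.18 (SE, adjusted p = 0.217 by limma). The third lay in Jmjd1c at chr10:67127000-67127045, 43 bp from an alternative start and wholly within the Jmjd1c stretch above. HFD samples had 0.941%, 4.46% and 7.52%, and RD samples 0.345%, 0.656% and 1.35%. HFD female 4 lay within the RD range there, and the other 5 HFD samples lay above it. The log2 difference was 0.75 ± 0.17 (SE, adjusted p = 0.290 by limma). The size depends on the offset: with 0.01 in place of 0.05 the log2 differences were 1.50 at Cd109, 1.81 at Set and 1.62 at Jmjd1c, and none passed.

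Sex was tested in the same model. Of the low distal tiles 0 passed, where 0.0104% of all tiles (4) did, and the smallest adjusted p was 0.677. At an unadjusted p under 0.05 there were 71 (4.78%), against 5.46% of all tiles, and 8 of the 71 were higher in females. Of the low gene-end tiles 22 of 216 at that p were higher in females, and of all tiles 794 of 2098. Without RD male 1 the count was 134 low distal tiles (9.02%, against 7.28% of all tiles in that fit), 6 of them higher in females. The tile with the smallest p lay in Hmx3, a homeobox gene of the inner ear, 172 bp from an alternative start, at chr7:131543135-131543459. It stood at 2.64%, 1.86% and 1.79% in HFD females, 0.762%, 1.07%, 1.05% and 0.627% in RD females, 3.62%, 4.61% and 5.73% in HFD males and 2.34% and 3.10% in RD males. Males were above females within each diet, and the log2 difference of female minus male was -0.45 ± 0.10 (SE, adjusted p = 0.677 by limma). In a tile of Cdh23, a cadherin of inner ear hair cells, at chr10:60687203-60687405, all 7 females lay between 0.393% and 1.31% and all 5 males between 1.78% and 3.78%, without overlap (log2 difference -0.36 ± 0.08 SE, adjusted p = 0.759 by limma). The third, an intergenic tile at chr1:195241607-195241779, 64727 bp from Cr2, had means of 7.22% in females and 13.4% in males (log2 difference -0.69 ± 0.16 SE, adjusted p = 0.768 by limma). With the offset of 0.01 the log2 difference was -0.95 at Hmx3 and -0.88 at Cdh23, and neither passed. The mean over all low distal tiles was 2.61% ± 0.62 in females (n = 7) and 3.05% ± 0.65 in males (n = 5), which overlapped.

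The interaction compares the effect of the diet in females with that in males. Of the low distal tiles 0 passed, where 0.0026% of all tiles (1) did, and 70 (4.71%) had an unadjusted p under 0.05, against 5.13% of all tiles. The smallest adjusted p was 0.677. In Smad6, at chr9:64020219-64020465, the tile stood at 1.05%, 0.774% and 0.611% in HFD females and 3.03%, 5.51%, 4.05% and 1.86% in RD females, and at 3.89%, 3.86% and 4.65% in HFD males and 0.852% and 0.316% in RD males. HFD females were all below RD females and HFD males all above RD males, with an interaction of -1.35 ± 0.25 (SE, log2, adjusted p = 0.677 by limma). A tile in Ctif, a factor of the first round of translation, at chr18:75695313-75695494, had means of 1.04% in HFD females, 2.90% in RD females, 4.60% in HFD males and 0.189% in RD males, with an interaction of -1.36 ± 0.26 (adjusted p = 0.677 by limma). A tile in Mir124-2hg, the host gene of Mir124a-2, at chr3:17794658-17794927 and named by its nearest protein-coding gene Cypt12, had means of 7.33%, 2.45%, 1.63% and 4.37% in the same order and an interaction of 1.31 ± 0.30 (adjusted p = 0.940 by limma). With the offset of 0.01 the interactions were -3.10 at Smad6, -3.37 at Ctif and 2.36 at Cypt12, and none passed. The RD males are 2 samples, so each of these values rests on that pair. The interaction was positive in 21 of the 70 and negative in 49, and over all tiles positive in 878 and negative in 1094. Without RD male 1 there were 136 tiles (9.16%, against 7.17% of all tiles in that fit) at that p, 107 positive and 29 negative. In that fit the interaction passed in 3 low distal tiles (0.202%), near the 0.161% of all tiles (62), so the count is no result about the low distal tiles. They lay at Nadk, Nr2f2 and Trmt1, named after their values were seen. That fit assumes that the lone RD male left varies like the other groups. In these tiles RD male 2 was that sample and stood at 6.79%, 10.1% and 10.3%, above the 11 other samples.

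**Figure D5:**
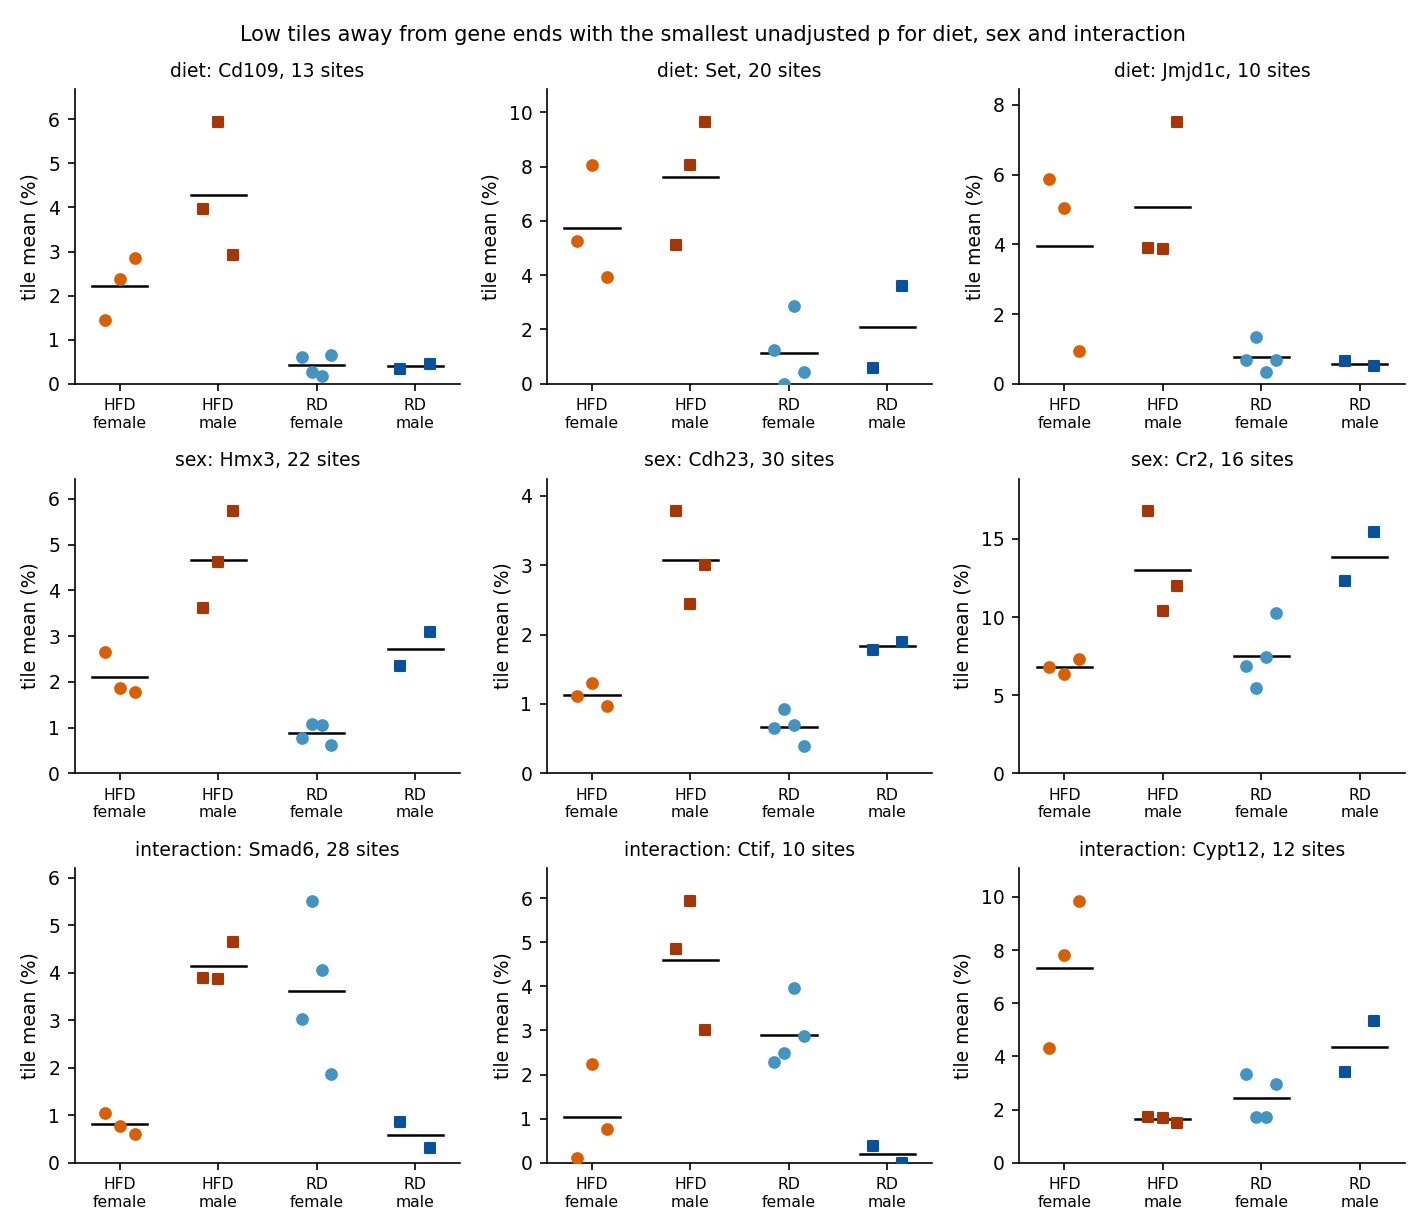
Tile mean in percent for each sample, by group, in the 3 low distal tiles with the smallest unadjusted p for diet (top row), sex (middle row) and their interaction (bottom row). Circles are females, squares are males, and bars are group means. None of the 9 passed the threshold after adjustment over 38449 tiles, and in the top row the HFD samples lie above the RD samples except for 1 HFD female at Jmjd1c.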

How the data were processed

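Methylation was measured by RRBS in the left ventricle of 12 offspring. The deposited table gives percent methylation per CpG position and sample, as the authors made it. The submitters' processing notes name FastQC, Trim Galore, Bismark 0.19 and limma, and the mm10 build. The coverage minimum, the strand handling and the role of each tool are not given in the sources used here. Of 421177 rows, 306534 were autosomal with 12 values. These were placed in 500 bp tiles, and a tile's value in a sample is the mean of its sites. Distances and gene types came from RefSeq (GRCm38.p6), matched by position. Of positions in start windows, 99.98% lay on a CpG.

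All 38449 tiles with 3 or more sites were fitted in limma 3.58.1 (R 4.3.3) with a mean-variance trend, on the log2 scale given in the report, with an offset of 0.05. The model had terms for diet and sex, or 4 group means for the interaction, and p-values were adjusted over all tiles by Benjamini-Hochberg at 0.05. The offset makes differences on that scale smaller for low tiles. The script was tested on simulated data, with differences put only in tiles away from both ends of the scale. Most low distal tiles lie below that range, so the test does not say how well differences in them are found. Tables used pandas 2.3.3 and numpy 2.4.6, and plots matplotlib 3.10.9. Flank means needed 3 or more sites. Depth is unknown, which limits the precision of single values. Replicates are separate animals.

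The members and the 9 gene lists were chosen with earlier results of these data known. Bmp4 had been put in the imprinted list by mistake and was taken out after its values were seen. Named tiles were the 6 with the most sites in each position, the tiles of the 8 genes and 5 runs with the most tiles (ties by position), the 3 smallest p per contrast, the 4 largest SDs, the 3 nearest the 10% limit on each side, the 4 largest site differences, the 4 farthest from gene ends, the 4 with the most methylated flanks and the 4 with the most sites per list. Some items that the rule names are not reported here. Alternatives changed the tile rule, the transformation, the filter, the model and the samples.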

Additional observations from a re-analysis of the deposited data

Results flagged for a closer look

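Within each diet group of 6, the highest and lowest value of 16 results was compared with the rest, 32 groups of values in all, and 7 had 1 sample far from the others. The cut would flag about 1 in 20 groups of normally spread values. These values are skewed percentages near 0 and most of the results were picked from these data, so that rate cannot be set against the 7. RD female 1 was that sample in 4 of the 7. It stood at 46.7% in the Gm2102 tile, where the next RD sample was at 0.893%, at 46.0% in the Hlcs tile (next 11.6%), at 39.7% in the Cadps2 tile (next 0.487%) and at 40.5% in the Epb41l1 tile (next 9.07%). HFD male 4 was that sample 2 times, at 27.1% in the Hlcs tile (next 6.50%) and at 21.1% in the Cadps2 tile (next 5.88%). These tiles were named for their large SD, so a sample far from the rest is part of how they were chosen. In the Jmjd1c tile RD female 2 stood at 1.35%, above the next RD sample at 0.677%.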

How the results depend on the processing

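The number of low distal tiles was 3430 with 5 or more sites, 633 with 15 or more, 977 at more than 2 kb and 615 at more than 5 kb from gene ends. Under 10 other choices it lay within 1.5 times of 1485, among them 1262 at a mean under 5%, 1225 with the ends of genes of any type and 1467 on a shifted grid. For diet and sex, 0 low distal tiles passed in every alternative fitted. For the interaction, leaving out 1 sample gave 0 to 3, the 3 without RD male 1, where 62 of all tiles passed. Calls over all tiles ran from 2 to 10 for diet, 0 to 4 for sex and 0 to 62 for the interaction. The mean difference between diets over the low distal tiles ran from 0.0602 to 0.445 points when 1 sample was left out. Whether the numbers in the titles pair the samples is not known. The deviations of same-numbered samples correlated at 0.00171, 0.0176, 0.00109 and -0.0483. No correlations of other samples were set beside these, so they cannot settle it. With the replicate number as a block, 0 low distal tiles passed in each of the 3 contrasts, and 3, 0 and 0 of all tiles did. A limit of 5 to 95% on the tile mean left 223 low distal tiles to test. Fits without RD female 1 and HFD male 4 together, means without them and tiles of 1000 bp were chosen after seeing the data. Without RD male 1 the balance of directions among low distal tiles at an unadjusted p under 0.05 turned, from 53 higher and 15 lower to 33 and 42 for diet, and from 21 positive and 49 negative to 107 and 29 for the interaction. The sign of each named difference stayed in all alternatives fitted. Without read counts, the part of sampling noise in single values was not tested.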

Other observations

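The X chromosome was left out of the rule. It held 34 tiles with 10 or more sites away from protein-coding gene ends, and 16 of them averaged under 10% in the 5 males. In 13 of the 16 all 7 females lay above all males. These 16 were chosen by their low level in males, which favours that direction. Over all 34 tiles, all females lay above all males in 16, and the female mean was the lower one in 8, by 5.26 points at Suv39h1. Over the 16 the median was 13.6% in females and 2.12% in males. Klf8, the gene of a zinc finger factor, had a tile at 25.8% in females and 0.973% in males, and a tile at Fam120c had 29.8% and 1.12%. Near Fgf13, a growth factor family gene, 2 tiles had 16.6% and 14.9% against 3.30% and 0.986%. Of 5 tiles near Bcor, a co-repressor gene, 4 were under 10% in males, and in 2 of these females and males overlapped. The largest difference among those at Bcor was 3.28 points. The third tile with overlap was at Eras, with 10.6% in females and 4.03% in males.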
